A study of Drosophila melanogaster with 75 samples.

Results

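*smp-30* (CG7390), the fly homologue of *senescence marker protein-30* and also known as *Dca*, was followed as 1 of the 11981 genes that have a probe set of their own on the *Drosophila* Genome array. It was chosen by its signal in these same arrays, which was lower in the heads of mated males than of courted males, so its differences between groups, with their standard errors and intervals, are given as a description, and no p is given for it. The array carries 2 probe sets for the gene, out of 18769 probe sets apart from the manufacturer's controls, and both were read on all 15 arrays. The males were isogenized Canton-S flies 5 days old, raised as virgins and then kept singly. In the mated group a male was placed with a virgin female and copulated. In the courted group he was placed with a cauterized virgin female, and in the control group he had no female. Males were collected 2 hrs after the mated male had finished copulating, heads were pooled at random 30 to a pool, and each group had 5 pools on 5 arrays. Whole heads hold brain, eyes, fat body, muscle and blood cells, so fewer cells of a type and less RNA per cell cannot be told apart.

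SMP-30, or regucalcin, is a soluble calcium-binding protein of vertebrates. It is also a gluconolactonase, an enzyme of sugar lactones, with a part in the pathway that makes vitamin C in most mammals. It was named for its decline in the ageing rat liver. The fly has *smp-30* and *regucalcin* as members of the family, and *smp-30* transcript is known to accumulate when adult flies are held in the cold. Levels below are log2 intensities averaged over 4 data sets that the study extracted from each array (dChip PM, dChip PM-MM, MAS5.0 and R/Bioconductor GC-RMA), unless a data set is named. Replicate numbers 1 to 5 are the pools. The labels say that males of the 3 groups were collected together, and the groups share pool letters, so differences are also given within numbers. With group means taken off, r between same-numbered mated and courted arrays ran from -0.45 to 0.17, so the pairing of courted arrays is less sure.

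One array stood apart from the rest. In courted replicate 4 the signal ratio of 3' to 5' control probe sets, which rises when RNA is short or labelled incompletely, was 23.4 for *eIF-4a* and 11.8 for actin in MAS5.0. Across the other 14 arrays these ratios lay between 1.87 and 3.02 for *eIF-4a* and between 1.52 and 2.22 for actin. Its median correlation with the other arrays was 0.976, against 0.986 to 0.993 for the rest. Differences, list medians and correlations that use courted males are therefore also given without replicate 4. The filter on low values, a minimum mean intensity, was passed by 5 of 5 photoreceptor, 6 of 6 glial, 7 of 7 haemocyte and 5 of 7 neuronal markers that have a probe set of their own (*elav* and *para* did not pass). Of the accessory gland and testis genes 0 of 9 passed, and their median MAS5.0 intensities over the arrays lay between 2.3 and 27.9.

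The brighter *smp-30* probe set (1635450_a_at) read 9.41, 9.46, 9.36, 9.40 and 9.44 in mated males. It read 9.97, 9.96, 10.20, 9.91 and 9.99 in courted males. In control males it read 9.99, 9.89, 9.90, 9.83 and 9.65. Every mated array thus lay below every courted and every control array, while courted and control arrays overlapped. The highest mated array was 0.45 log2 units below the lowest courted array and 0.19 below the lowest control array. In MAS5.0 the intensity was 722 ± 27.6 in mated males, 1118 ± 115 in courted males and 990.1 ± 88.3 in control males (mean ± SD, n = 5 each).

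The dimmer probe set (1636973_at) read 7.05, 7.13, 7.08, 7.36 and 7.32 in mated males. It read 7.84, 7.59, 7.89, 7.61 and 7.54 in courted males and 7.81, 7.66, 7.67, 7.49 and 7.12 in control males. Mated and courted arrays again did not overlap, with a gap of 0.18 log2 units. Control replicate 5 fell within the mated range, below mated replicates 2, 4 and 5, while the other control arrays lay above all mated arrays. This probe set was nearer the filter on low values, with MAS5.0 intensities of 126 to 216 in mated males, 187 to 287 in courted males and 121 to 261 in control males.

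**Figure D1:**
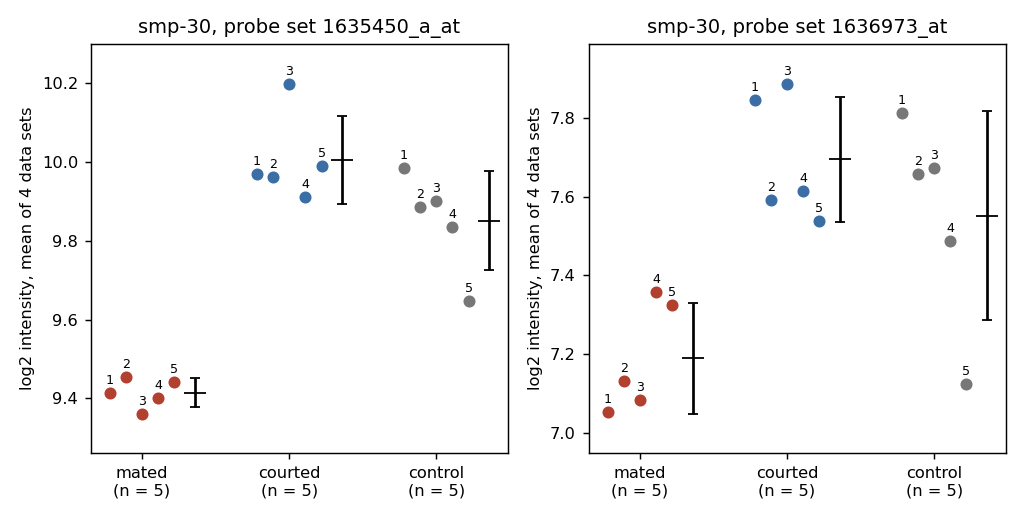
Level of *smp-30* (log2 intensity, mean of 4 data sets) on each array, for the brighter probe set (left panel) and the dimmer probe set (right panel). Points are arrays labelled by replicate number, and bars give the mean and SD (n = 5). The 5 mated arrays lie between 9.36 and 9.46 for the brighter probe set, below all courted and control arrays.

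Mated males had 1.51-fold less *smp-30* signal than courted males by the brighter probe set, a log2 difference of -0.59 (SE 0.06, 95% interval -0.74 to -0.45). The dimmer probe set gave -0.51 (SE 0.11, 95% interval -0.76 to -0.25). The difference was negative in 5 of 5 numbered pairs for both probe sets, and ran from -0.84 to -0.51 over the pairs for the brighter one. Courted replicate 3, the highest array of all, supplied the most negative pair. Leaving out 1 number at a time gave -0.61 to -0.53 for the brighter and -0.58 to -0.43 for the dimmer probe set, and without replicate 4 the values were -0.61 and -0.57. Of the 8506 probe sets that passed the filter in this comparison, 0.411% lay lower in mated males with no overlap, and the 2 of *smp-30* were ranked 3 and 6 from the lowest difference. This contrast chose the gene, so nothing is read from those places.

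Mated males also had less *smp-30* signal than control males. The log2 difference was -0.44 (SE 0.06, 95% interval -0.57 to -0.30) for the brighter probe set, a 1.35-fold lower level in mated males, and all 5 pairs were negative. For the dimmer probe set it was -0.36 (SE 0.13, 95% interval -0.66 to -0.06), with 4 of 5 pairs negative. The exception was pair 5, at 0.20, and without replicate 5 the dimmer probe set gave -0.50 and the brighter -0.49. Of 8532 probe sets, 0.609% were lower in mated males with no overlap. The study selected the gene on these mated and control arrays too, so these values are not separate evidence of its direction.

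Courted males had slightly more signal than control males, by 0.16 (SE 0.07, 95% interval -0.00 to 0.31) for the brighter and 0.14 (SE 0.07, 95% interval -0.03 to 0.32) for the dimmer probe set. Pairs were positive in 4 of 5 cases for each. The difference was 0.34 in pair 5 and -0.01 in pair 1 for the brighter probe set. Without replicate 4 the values were 0.18 and 0.15, and without replicate 5 the dimmer probe set gave 0.0761. The order of the group means was courted, control, mated, and courted and control arrays overlapped for both probe sets in the mean of the 4 data sets. Groups overlapped in all data sets for the dimmer probe set. For the brighter one they did not overlap in R/Bioconductor GC-RMA, where courted arrays began at 1057 and control arrays ended at 1054. In the mean of the 4 data sets, where the brighter probe set did overlap, 0.305% of all probe sets lay higher in courted males with no overlap. That share was not counted in R/Bioconductor GC-RMA alone. The 3 comparisons share arrays, so their values for *smp-30* are not independent of one another.

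The choice of algorithm moved the size of the difference more than its direction. For the brighter probe set, mated minus courted ran from -0.50 in dChip PM-MM and -0.52 in dChip PM to -0.63 in MAS5.0 and -0.72 in R/Bioconductor GC-RMA. Mated and courted arrays did not overlap in 4 of 4 data sets, and 20 of 20 pair values were negative. The dimmer probe set gave -0.53 to -0.49 with no overlap in 3 of 4 data sets and 19 of 20 negative pair values. In MAS5.0 its mated and courted arrays overlapped. The 4 data sets are readings of the same arrays, so these pair values are the same 5 pairs read 4 times, not 20 replicates. The share of all probe sets without overlap was not counted in single data sets. Mated against courted chose the gene, so nothing is read from these counts. Mated minus control in MAS5.0 was -0.26 for the dimmer probe set, with a 95% interval of -0.79 to 0.27, while the other data sets gave -0.41 to -0.38. In that data set control replicate 5 read 121 and mated replicate 4 read 216.

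**Figure D2:**
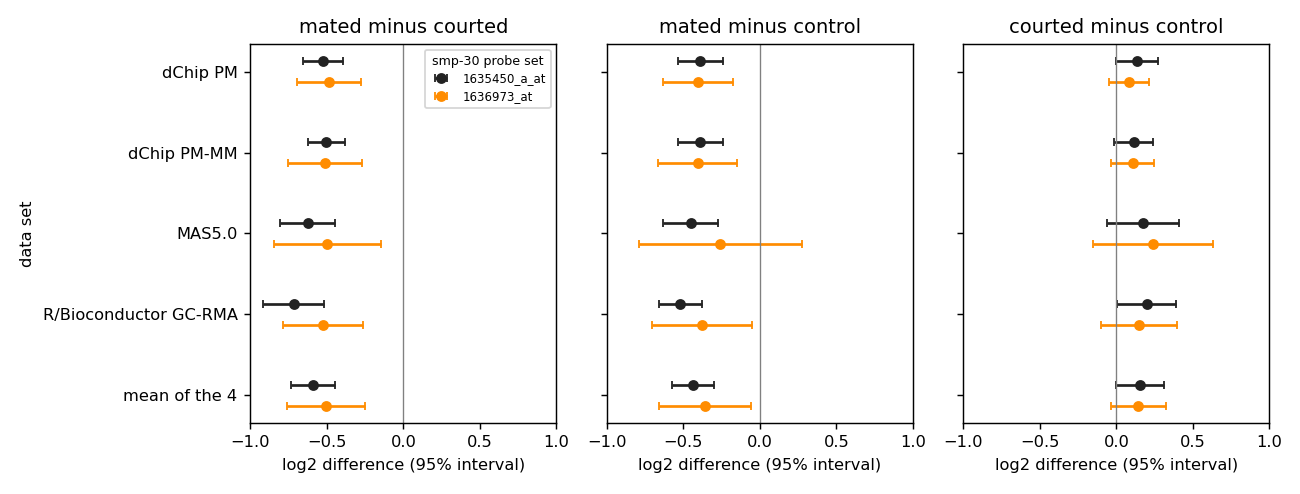
Log2 difference in *smp-30* between groups in each of the 4 data sets and in their mean, for the brighter (black) and dimmer (orange) probe set. Points are mean paired differences (n = 5 pairs) and bars their 95% intervals. Mated minus courted lies between -0.72 and -0.49 in all 4 data sets for both probe sets.

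The spread of *smp-30* differed between groups. The SD of the brighter probe set was 0.04 over mated arrays, 0.11 over courted arrays and 0.13 over control arrays. Medians over the 8514 probe sets that passed on all 15 arrays were 0.08, 0.11 and 0.11 for the same groups. The SD of the dimmer probe set was 0.14 in mated, 0.16 in courted and 0.27 in control arrays. Across the 15 arrays the probe sets correlated with r = 0.89, and with r = 0.79 after the group means were taken off. These points share their arrays and hybridization, and of all passing probe sets the dimmer one ranked 1 in its correlation with the brighter over the 15 arrays. The gene was chosen for a difference between groups that both probe sets show, so nothing is read from that rank.

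*regucalcin*, the other family member, is on the X chromosome, while *smp-30* is on 3R. Its brightest probe set (1629889_s_at) read 11.89, 11.97, 12.19, 11.92 and 11.94 in mated males, 12.02, 12.08, 12.17, 11.49 and 11.91 in courted males, and 11.93, 11.77, 12.25, 11.90 and 11.83 in control males. The groups overlapped throughout. Mated minus courted was 0.05 (95% interval -0.16 to 0.26), mated minus control was 0.04 (-0.07 to 0.16) and courted minus control was -0.00 (-0.24 to 0.24). Adjusted p in limma, over all probe sets tested, was 0.992, 0.799 and 0.997 for these comparisons. Without replicate 4, mated minus courted was -0.0497 and courted minus control 0.0993. The interval for mated minus courted did not reach the *smp-30* value of -0.59, but this contrast chose *smp-30*, so nothing is read from that.

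A second *regucalcin* probe set (1629430_s_at) read 9.45, 9.38, 10.17, 9.79 and 9.55 in mated males. In courted males it read 9.65, 9.79, 9.61, 6.39 and 9.74, and in control males 9.25, 8.57, 10.07, 9.50 and 9.50. Courted replicate 4, the array with high 3' to 5' ratios, was more than 3 log2 units below the other courted arrays, and the part of RNA quality in this was not tested. Mated minus courted was 0.63 (SE 0.57, adjusted p in limma 0.988), and without replicate 4 it was -0.06. Mated minus control, which does not use that array, was 0.29 (SE 0.11, adjusted p in limma 0.505) and was higher in 5 of 5 pairs. The third probe set (1638249_at) did not pass the filter. The brighter *smp-30* probe set read 9.91 on the same courted array, the lowest of the 5 courted values and above every mated array.

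**Figure D3:**
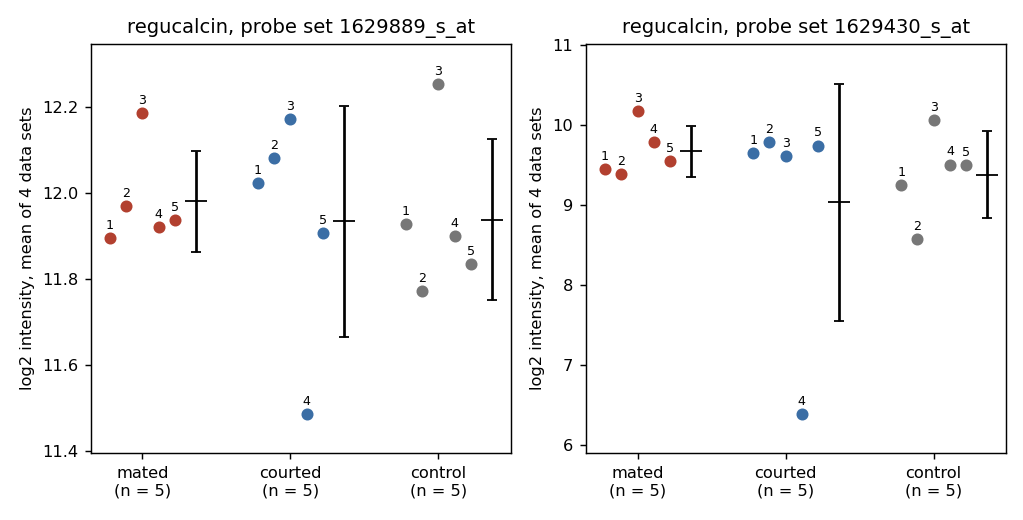
Level of *regucalcin* (log2 intensity, mean of 4 data sets) on each array for the probe sets that passed the filter. Points are arrays labelled by replicate number, and bars give the mean and SD (n = 5). Mated, courted and control arrays overlap, and courted replicate 4 reads 6.39 in the right panel, against 9.61 to 9.79 for the other courted arrays.

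No probe set passed an adjusted p under 0.05 in limma in any of the 3 comparisons (0% of 8506, 8532 and 8514). At an unadjusted p under 0.05, 172 probe sets were higher (2.02%) and 155 lower (1.82%) in mated than in courted males. Mated against control males gave 477 higher (5.59%) and 303 lower (3.55%), and courted against control males 236 higher (2.77%) and 122 lower (1.43%). A Cyber-T style test on the same values called 4 probe sets in mated against courted males. Those of *fit*, *TBC1D5* and *bgm* were higher in mated males, and were named after their values were seen. The fourth belonged to *smp-30*, whose place there was fixed by the way it was chosen and is no result.

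Genes with known parts in the response to cold and heat were examined because *smp-30* is a cold-responsive gene. Of 15 listed genes, 6 could be tested, 0 passed in either direction in any comparison, and their median mated minus courted difference was -0.04 (also -0.04 without replicate 4), beside 0.00 over all probe sets. The lowest p belonged to *Hsp26*, a small heat shock protein that keeps damaged proteins soluble. *Hsp26* read 7.44, 7.76, 7.82, 8.00 and 8.14 in mated males, 8.03, 8.31, 7.98, 8.00 and 8.29 in courted males, and 7.77, 8.32, 8.12, 8.14 and 8.18 in control males. All 3 groups overlapped. Mated minus courted was -0.29 (SE 0.10, adjusted p in limma 0.988) and mated minus control was -0.27 (SE 0.07, adjusted p in limma 0.366), with 5 of 5 pairs negative in each. Without replicate 4 mated minus courted was -0.36. *Hsp60A*, the mitochondrial chaperonin, was at -0.05 (SE 0.04, adjusted p in limma 0.988) for mated minus courted, and at -0.0344 without replicate 4.

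Genes that handle calcium in the cell were listed because the vertebrate protein binds calcium. All 16 of the 20 that have a probe set of their own passed the filter. None passed the test in either direction in the 3 comparisons, and the median difference was 0.02 for mated minus courted, 0.03 for mated minus control and 0.02 for courted minus control. The medians with courted males were 0.02 each without replicate 4. In mated against courted males 0 of 16 had an unadjusted p under 0.05. The list's lowest p was that of *Letm1*, an ion exchanger of the inner mitochondrial membrane, at -0.08 (SE 0.05, adjusted p in limma 0.988), or -0.0499 without replicate 1 and -0.0559 without replicate 4. *Nckx30C*, a sodium, calcium and potassium exchanger of photoreceptors, was at 0.28 (SE 0.20, adjusted p in limma 0.988), and this came to 0.0855 without replicate 4 and 0.44 without replicate 2. Over the whole list, which holds calcium pumps, channels and binding proteins, mated minus courted ran from -0.10 to 0.28.

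Enzymes of the pentose phosphate pathway and of sugar lactones were listed because the vertebrate protein acts on such lactones. Of 9 genes 6 were tested and none passed in either direction in any comparison, with medians of -0.02 for mated minus courted, -0.08 for mated minus control and -0.08 for courted minus control. Without replicate 4 the medians were -0.0742 for mated minus courted and 0.0161 for courted minus control. *Rpe*, which interconverts pentose phosphates, was at 0.05 (SE 0.07) in mated minus courted and *CG8036*, a transketolase, at -0.05 (SE 0.08), each with an adjusted p in limma above 0.98. Without replicate 4 these were -0.0209 and -0.14. These were the extremes of the list.

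Markers of the cell types in the head were examined beside *smp-30*. In the fat body list 5 of 10 genes were tested and none passed in limma. *fit*, a secreted product of the head fat body, read 12.52, 12.68, 12.84, 12.74 and 12.77 in mated males, 12.30, 12.35, 12.53, 12.40 and 12.34 in courted males, and 12.34, 12.29, 12.31, 12.32 and 12.11 in control males. Mated minus courted was 0.33 (SE 0.04, adjusted p in limma 0.302) and all 5 pairs were positive (0.32 without replicate 4), so its sign was opposite to that of *smp-30*. This contrast chose *smp-30*, and *fit* was named by its p there, so nothing is read from the opposite signs. *Lsp2*, a storage protein of the fat body, read 11.96, 12.17, 12.26, 12.11 and 12.06 in mated males, 11.86, 11.92, 12.04, 11.93 and 12.29 in courted males, and 12.60, 12.59, 12.60, 12.39 and 11.96 in control males. Its mated minus courted difference was 0.10 (SE 0.08, adjusted p in limma 0.988), and mated minus control was -0.32 (SE 0.09, adjusted p in limma 0.423). Courted minus control, with replicate 4 included, was -0.42, the lowest of the fat body list in that comparison. Courted replicate 5 was above the other courted arrays, and mated minus courted was 0.19 without replicate 5, 0.0685 without replicate 2 and 0.0860 without replicate 4. Control replicate 5, the array in which both *smp-30* probe sets were at their lowest among controls, was also the lowest control array for *fit* and *Lsp2*. The other tested fat body genes are not given for that array, and a shared cause was not tested.

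The summed MAS5.0 intensity of the fat body markers, over the 9 genes with a probe set of their own, ran from 27127 to 30449 in mated males, 23714 to 28599 in courted males and 25082 to 32358 in control males. These ranges overlapped, and 4 of the 9 genes (*Yp1*, *Yp2*, *Fbp1* and *Fbp2*) did not pass the filter. The glial sum ran from 17936 to 21602 in mated, 17240 to 19270.4 in courted and 16573 to 19770.4 in control males. The haemocyte sum ran from 7536 to 8959 in mated, 7228 to 8902 in courted and 6684 to 8901 in control males. Median mated minus courted differences were 0.05 for fat body, 0.03 for neuron, 0.02 for photoreceptor, 0.04 for glia, -0.02 for muscle and 0.02 for haemocyte genes. Without replicate 4 they were -0.0376 for fat body, 0.0101 for neuron, 0.00639 for photoreceptor, 0.0415 for glia, -0.0151 for muscle and -0.00874 for haemocyte genes. With replicate 4 included, mated minus courted ran from 0.01 to 0.39 over single neuron genes and from -0.08 to 0.22 over single muscle genes. Of the 33 tested genes of all these lists 0 passed the test. At an unadjusted p under 0.05 were *fit* and *Sr-CI*, a scavenger receptor of haemocytes, whose difference was 0.20 (SE 0.06, adjusted p in limma 0.988), or 0.17 without replicate 4. The share of all probe sets at that p was 2.02% higher and 1.82% lower. The glial gene of lowest p, *repo*, which specifies glia, was at 0.11 (SE 0.05, adjusted p in limma 0.988) with or without replicate 4.

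**Figure D4:**
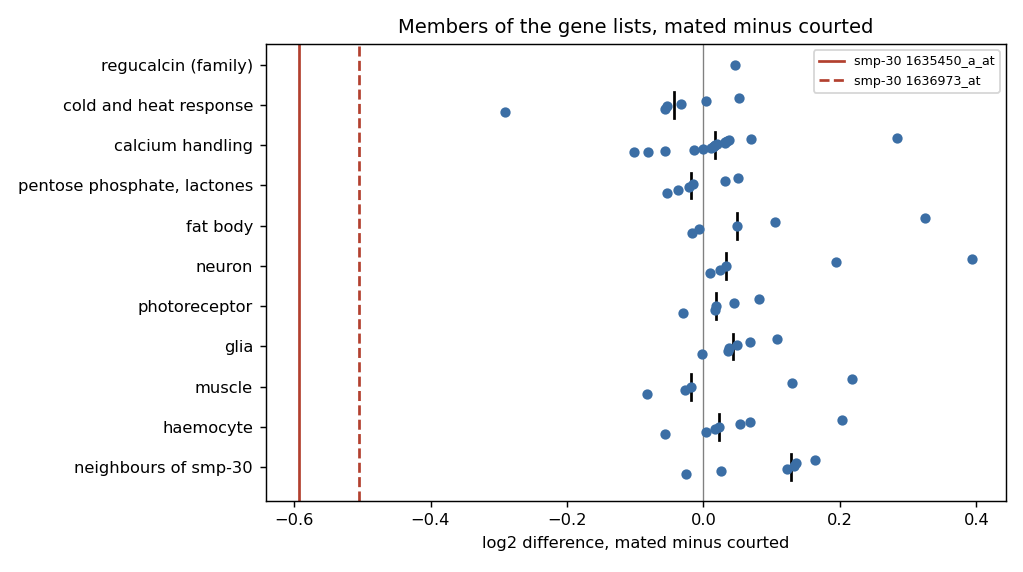
Log2 difference between mated and courted males for each tested member of the gene lists (points), with the median of each list (short black line) and the values of the *smp-30* probe sets (red lines). All listed genes lie between -0.29 and 0.39, and the red lines are at -0.59 and -0.51. This contrast chose *smp-30*, so the distance of the red lines from the points is no result.

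On chromosome arm 3R the gene lies within the span of *jvl*, which encodes a microtubule-associated protein, as placed in the Release 6 gene table used for names. That table gives no strand. Of the 5 nearest genes on each side, 9 of 10 had a probe set of their own and 6 passed the filter. The brightest *jvl* probe set read 8.71, 8.65, 8.78, 8.70 and 8.91 in mated males, 8.62, 9.02, 8.48, 8.08 and 8.87 in courted males, and 8.55, 8.86, 8.22, 8.46 and 8.97 in control males. The groups overlapped, and mated minus courted was 0.14 (SE 0.13, adjusted p in limma 0.988). Without replicate 4 it was 0.01. Among the other tested neighbours the differences were 0.16 for *Meltrin*, a metalloprotease, 0.12 for *kibra*, a regulator of growth, 0.13 for *CG14855*, 0.03 for *btsz* and -0.03 for *CG7530*. These values moved when single numbers were left out. Leaving out replicate 4 gave 0.0802 for *Meltrin*, 0.0789 for *kibra*, 0.12 for *CG14855*, -0.0869 for *btsz* and -0.0190 for *CG7530*. Without replicate 3 *kibra* was at 0.0345 and *CG7530* at -0.0658, and without replicate 5 *CG7530* was at -0.00028. None of the 6 passed the test, 1 (*CG14855*) had an unadjusted p under 0.05 (adjusted p in limma 0.988), beside 2.02% of all probe sets higher and 1.82% lower at that p. The median of the 6 was 0.13, and 0.0467 without replicate 4.

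The genes whose levels went most closely with the brighter *smp-30* probe set over the 15 arrays were *Fpps*, which makes the farnesyl precursor of juvenile hormone and other isoprenoids (r = 0.83), the galactokinase *Galk* (0.82), *ninaD*, a scavenger receptor for carotenoid uptake (0.81), *CG31075* (0.80) and the predicted lipase *Lip2* (0.80). *Galk* averaged 11.30 ± 0.02 in mated, 11.51 ± 0.10 in courted and 11.53 ± 0.08 in control males (SD, n = 5 each). *Fpps* averaged 8.67 ± 0.04 in mated, 8.85 ± 0.06 in courted and 8.79 ± 0.07 in control males. Their spans between group means were smaller than that of *smp-30* on the same log2 scale. *smp-30* was chosen for its difference between groups, so nothing is read from that.

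The genes that ran most against it were *TBC1D5*, a Rab GTPase activating protein (r = -0.87), *shf*, which helps Hedgehog spread between cells (-0.85), *CG16772* (-0.84), the long-chain fatty acid activating enzyme *bgm* (-0.84) and the phosphatidylserine synthase *Pss* (-0.82). *TBC1D5* read 10.91, 10.85, 10.68, 10.91 and 10.72 in mated males, 10.40, 10.31, 10.40, 10.43 and 10.45 in courted males, and 10.47, 10.36, 10.50, 10.55 and 10.47 in control males. Mated arrays stood above all others for this gene, as they did for 0.458% of probe sets against courted and 0.715% against control arrays. The gene was picked by its r to *smp-30*, itself chosen for its low mated arrays, so nothing is read from this. Within groups the relation was weaker. After group means were taken off, r was 0.33 for *Fpps*, 0.44 for *Galk*, 0.56 for *ninaD*, 0.55 for *CG31075* and 0.45 for *Lip2*. It was 0.01 for *TBC1D5*, -0.34 for *shf*, -0.23 for *CG16772*, -0.22 for *bgm* and -0.39 for *Pss*. Of all 8514 probe sets, 0.705% had an r beyond 0.7 in either direction over the 15 arrays. Without courted replicate 4, over 14 arrays, r ran from 0.80 to 0.86 for the first 5 genes and from -0.87 to -0.82 for the other 5. These correlations are descriptions, and the arrays of a group share their treatment.

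**Figure D5:**
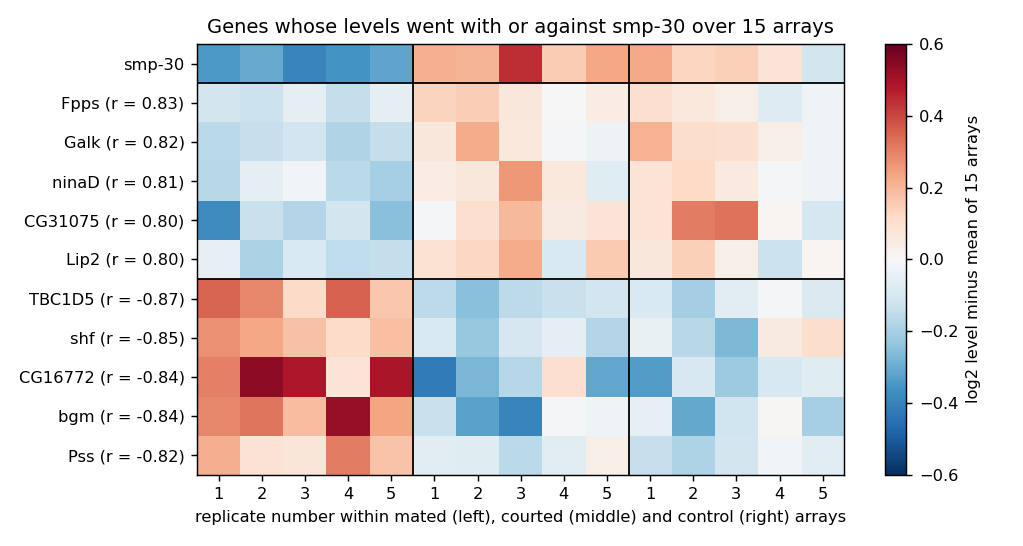
Level of *smp-30* and of the 5 genes with the highest and the 5 with the lowest r to it, on each array, as log2 level minus the mean of the 15 arrays (colour). Columns are replicates 1 to 5 of mated, courted and control males from left to right. *smp-30* and the first 5 genes are blue (low) in mated males, and the last 5, from *TBC1D5* (r = -0.87) to *Pss* (r = -0.82), are red (high).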

How the data were processed

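RNA from male heads was hybridized to Affymetrix Drosophila Genome 2.0 arrays by the authors, and the deposited values are linear intensities of each of 15 arrays extracted by 5 algorithms (75 columns). GCOS version 1.2 and GCRMA are named in the submitters' processing notes. The GeneSpring GC-RMA values were out of step by 1 place after an empty entry at place 3092. Moved up by 1, they matched R/Bioconductor GC-RMA for the brighter *smp-30* probe set (r = 0.994, against 0.311 as deposited), and they entered only an alternative.

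Intensities were floored at 1 and converted to log2, and each probe set was averaged over the data sets where its mean in the compared arrays exceeded 50 (for dChip) or 100 (for MAS5.0 and GC-RMA). At least 3 of 4 data sets had to pass. Of 18952 probe sets 183 controls were left out. Through the platform annotation, with symbols brought up to date from the RefSeq gene table (Release 6 plus ISO1 MT), 13646 probe sets named 1 gene, 402 several and 4721 none. Groups were compared with limma 3.58.1 (R 4.3.3, two-sided, Benjamini-Hochberg), blocking on the replicate number. The code was tested on simulated data. The pairing comes from the collection protocol in the labels and from pool letters shared by the groups. Same-numbered mated and control arrays deviated together (r = 0.09 to 0.50), while mated and courted (r = -0.45 to 0.17) and courted and control arrays (r = -0.30 to 0.33) did not do so throughout. Precision is limited by the 5 arrays a group.

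The gene, the lists and the tests were chosen with earlier results of these data known. Named genes were *smp-30* and *regucalcin*, at most 4 genes a list, those of lowest p in mated against courted males, the 5 genes most like and most unlike *smp-30* by Pearson r, and the 5 nearest genes on each side. A gene with several probe sets was given by its brightest.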

Additional observations from a re-analysis of the deposited data

Results flagged for a closer look

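Within groups of 5 arrays, single arrays lay far from the others by Dixon's 95% limit in 5 of 90 groups examined, and chance alone marks about 1 in 20 groups. The brighter *smp-30* probe set was high in courted replicate 3, at 10.20 against 9.99 for the next courted array. *regucalcin* by 1629430_s_at was low in courted replicate 4, at 6.39 against 9.61, on the array with a 3' to 5' ratio of 23.4 for *eIF-4a*. *regucalcin* by 1629889_s_at was high in mated replicate 3, at 12.19 against 11.97. *fit* was low in control replicate 5, at 12.11 against 12.29, and *Letm1* was low in mated replicate 1, at 9.73 against 9.88.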

How the results depend on the processing

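The *smp-30* differences kept their sign for both probe sets and all comparisons under every alternative run. They moved by less than the SD of the pairs. The dimmer probe set gave no value in comparisons with mated males at thresholds of 100 and 200. The alternatives reuse the arrays on which the gene was chosen, so its kept sign in comparisons with mated males is no separate evidence. Probe sets called in limma, 0 in each comparison, numbered for mated against courted males 1 without the replicate block (*smp-30* itself), 4 in the Cyber-T style test, 5 with all 15 arrays in 1 fit (*CG30002*, *TBC1D5*, *bgm*, *CG13360* and *smp-30*) and 0 to 1 with a number left out (*CG16772* without replicate 4). For mated against control males they became 13 with thresholds of 100 and 200, 3 without the replicate block (*smp-30*, *CG12116* and *Jhe*), 22 with a variance trend, 35 in the Cyber-T style test, 7 with all arrays in 1 fit and 0 to 2 with a number left out (*CG3117* without replicate 1, *CG16772* and *Dr* without 4, *Jhe* without 5). Courted against control males gave 1 in the Cyber-T style test (*CG11741*) and 0 to 0 with a number left out. These genes were named after their values were seen, and the cause was not tested. The places of *smp-30* among them follow from its choice on these arrays and are no result. The replicate block changed no other call. List medians and correlations without replicate 4 were added after seeing the data.

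Unadjusted p under 0.05 was reached in mated against courted males by 327 probe sets, by 1264 in dChip PM, 557 in dChip PM-MM, 836 with no filter and 197 in the Cyber-T style test. For mated against control males it was 780, against 1525 in dChip PM, 1275 with no filter and 514 without replicate 4. For courted against control males it was 358, against 861 in dChip PM, 854 with no filter, 206 in the Cyber-T style test and 184 without replicate 3.

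Differences near 0 changed sign. *regucalcin* ran from -0.0497 to 0.0906 for mated minus courted with a number left out, and from -0.0815 to 0.0993 for courted minus control, which was 0.0130 in dChip PM, 0.0089 in R/Bioconductor GC-RMA and 0.0053 with arrays centred on medians. Its probe set 1629430_s_at ran from -0.0583 to 0.89 for mated minus courted and from -0.73 to 0.35 for courted minus control, where -0.0583 and 0.35 were without replicate 4. With a number left out *Rpe* ran from -0.0209 to 0.0915, *CG8036* from -0.14 to 0.00095 and *btsz* from -0.0869 to 0.11. *btsz* was -0.0044 in R/Bioconductor GC-RMA, and *CG7530* was 0.0138 in dChip PM and 0.0153 in dChip PM-MM. *fit* passed in the Cyber-T style test (adjusted p 0.0262, against 0.302 in limma). Of the 10 genes most like or unlike *smp-30*, 0 were chosen again after group means were taken off, 4 in MAS5.0 and 5 in R/Bioconductor GC-RMA.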
